A study of Mus musculus with 4 samples.

Results

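T helper–like cells of the inflamed spinal cord (SC) were taken from single-cell RNA-Seq libraries of mice with experimental autoimmune encephalomyelitis (EAE). A barcode was counted as T helper–like when it held at least 3 unique molecular identifiers (UMIs, each standing for 1 captured mRNA molecule) of *Cd3e*, *Cd3d*, *Cd3g*, and *Lat* together. *Cd3e*, *Cd3d*, and *Cd3g* encode signaling chains of the T cell receptor complex, and *Lat* encodes the adaptor that passes its signal on. The same barcode had to hold no UMI of *Cd8a* or *Cd8b1*, which mark CD8 T cells, and no UMI of *Ncr1*, *Klre1*, or *Klrb1c*, which mark NK cells. It could hold at most 2 UMIs of the myeloid gene *Tyrobp* and at most 1 UMI of the endothelial genes *Cldn5*, *Cdh5*, *Egfl7*, and *Esam* together. The limits used these 10 further genes on barcodes with at least 1500 UMIs, of which under 10% were mitochondrial, and they left 900 T helper–like cells among 28513 barcodes. The cells were thus chosen by their UMI counts of these genes, whose levels are not findings.

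Each of the 4 libraries came from 1 condition, and all mice had been immunized against a myelin oligodendrocyte glycoprotein peptide. In the blockade pair, wild-type C57Bl/6JOlaHsd mice of 15 weeks received either the isotype control antibody mIgG1 or an angiopoietin-2–blocking antibody (Ang2 Ab) from the day of immunization, and SCs were taken at 14 dpi. In the overexpression pair, C57Bl/6JCrl mice of 12 to 14 weeks were either littermates with a single transgene (Ctrl) or mice that carried both *VE-cadherin-tTA* and *Tet-OS-Ang2* (*EC-Ang2*), and SCs were taken at 12 dpi. The Ang2 transgene of *EC-Ang2* mice is regulated by tetracycline and expressed in endothelial cells, and doxycycline held it off until birth. The overexpression pair also received less pertussis toxin, so that strain, transgenes, age, day, and toxin dose cannot be told apart between the pairs. The number of mice behind a library was not given in the sources used here. With 1 library for each condition there was no test between conditions, and every interval between conditions covers counting error only. CD45+ and CD31+ cells had been sorted in equal numbers, and a share of immune barcodes therefore says nothing of the number of cells in the SC.

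T helper cells are CD4+ T cells that recognize peptide on MHC class II molecules and direct other immune cells through secreted cytokines. In EAE, myelin-specific T helper cells primed in lymph nodes enter the SC, where IL-17A–producing Th17 cells, IFN-γ–producing Th1 cells, and cells that secrete GM-CSF recruit and activate myeloid cells. *Foxp3*-expressing regulatory T cells restrain them.

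The cells were shallow, and few of them lay at the CD3 and *Lat* limit of the rule. The libraries mIgG1, Ang2 Ab, Ctrl, and *EC-Ang2* held 252, 205, 136, and 307 T helper–like cells, respectively. The libraries held 66631583, 57954609, 52084739, and 52796061 UMIs in all, of which 977688, 795245, 641344, and 1565574 belonged to these cells. Their median depth was 3291, 3322, 4059.5, and 4091 UMIs, so cells of the overexpression pair were read somewhat more deeply. The median cell held 15.5, 15, 17, and 17 UMIs of *Cd3e*, *Cd3d*, *Cd3g*, and *Lat*, well above the minimum. Only 1, 4, 2, and 4 cells sat at the minimum of 3 UMIs, and 2, 4, 1, and 1 barcodes failed at 2 UMIs alone. The other limits cut closer, since 96, 73, 39, and 74 cells held 1 or 2 *Tyrobp* UMIs and 3, 9, 7, and 4 barcodes failed with 3 or 4. For the endothelial genes, 85, 63, 42, and 103 cells held 1 UMI and 24, 24, 14, and 26 barcodes failed with 2. A UMI of *Cd8a* or *Cd8b1* kept out 20, 26, 24, and 28 barcodes, and a UMI of *Ncr1*, *Klre1*, or *Klrb1c* kept out 13, 10, 4, and 10.

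*Icos*, *Cd2*, and *Lck*, T cell genes that the rule did not use, were present in each of the 4 libraries. Values are counts per 1000000 UMIs (CPM) over the summed UMIs of the T helper–like cells of a library, in the order mIgG1, Ang2 Ab, Ctrl, and *EC-Ang2*. The inducible costimulator gene *Icos* stood at 568, 552, 711, and 697.5 CPM. *Cd2*, which encodes an adhesion receptor of T cells, stood at 783.5, 895, 1070, and 1050 CPM. *Lck*, the kinase that starts T cell receptor signaling, stood at 628, 553, 572, and 584 CPM. Genes of the T cell constant regions were not in the gene table, so αβ and γδ receptors could not be read directly.

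*Cd4* (chr6:124864692-124888221, minus strand, mm10) encodes the coreceptor that defines the lineage. It stood at 259, 216, 210.5, and 208 CPM, with a UMI in 140 of 252, 91 of 205, 76 of 136, and 185 of 307 cells. Each cell was thinned to 1500 UMIs to compare detection at equal depth, and *Cd4* was then found in 29.0% (95% Clopper-Pearson interval 23.4 to 35.0), 22.4%, 23.5%, and 25.4% of the cells. Among endothelial barcodes thinned alike the share was at most 0.042%, and among myeloid barcodes at most 0.222%. The CD40 ligand gene *Cd40lg*, through which helper cells act on antigen-presenting cells, had a UMI in 95, 72, 58, and 135 cells. Either gene was seen in 174, 125, 100, and 233 cells, which is 69.0%, 61.0%, 73.5%, and 75.9%. The label therefore rests on the CD3 chains and *Lat* for the cells with neither gene, in which *Cd4* could have been missed at this depth.

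A small set of cells carried genes of γδ T cells, in which *Cd163l1* and *Blk* are known to be expressed. There were 8, 14, 2, and 13 cells with at least 2 UMIs of 5 such genes, 37 in all, and they were looked at after their values were seen. Of these 37, only 4 (10.8%) had a *Cd4* UMI, while 23 (62.2%) had an *Il17a* UMI. Among the 831 cells with no UMI of these genes, 474 (57.0%) had a *Cd4* UMI and 154 (18.5%) an *Il17a* UMI. No test was made on this class.

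RNA of other cells was present, and in mIgG1 *Apoe* stood at 1226 CPM with a UMI in 250 of 252 T helper–like cells. Free RNA, estimated from endothelial genes outside the rule against barcodes of 10 to 100 UMIs, could account for 7.77%, 7.09%, 4.54%, and 4.50% of the UMIs of the T helper–like cells. Of these 12 endothelial genes, *Igfbp7* had the most UMIs in each library. In cells with against without a *Foxp3* UMI it stood at 101 against 477, 145 against 419, 103 against 165, and 121 against 205 CPM. If T helper–like cells express *Igfbp7*, the free RNA percentages here and below are too high, which was not tested. The 15 macrophage and monocyte markers summed to 3387, 1896, 2160, and 1586 CPM. Free RNA could account for 80.4%, 75.4%, 44.3%, and 58.1% of that sum. *Apoe* was the most abundant of these markers in mIgG1 and *Plac8*, a gene that lymphocytes also express, in the other 3 libraries. The 9 microglia markers summed to 123, 111, 296, and 95.2 CPM, and 2, 1, 0, and 1 of them were at 0. B cell markers had 3, 30, 6, and 7 UMIs in all.

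Few barcodes were shared or looked like doublets. Of the barcodes past the filters, 223, 243, 211, and 188 occurred in a second library, of which 8, 6, 3, and 10 were T helper–like cells, and 1 of these barcodes was T helper–like in both Ctrl and *EC-Ang2*. Removing the 428, 546, 408, and 269 barcodes with the highest Scrublet doublet scores took away 0, 1, 1, and 1 T helper–like cells, so doublets were left in the main counts. The rule itself had left out CD3-positive barcodes with myeloid or endothelial UMIs past its limits.

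T helper–like cells made up the largest share of immune barcodes in *EC-Ang2* and the smallest in Ctrl. Immune barcodes were those with at least 3 UMIs of Ptprc, Coro1a, Laptm5, and Cd52 and at most 1 endothelial UMI, which left out 1 T helper–like cell each of Ang2 Ab and *EC-Ang2*. For the blockade pair the share was 10.6% (252 of 2388, interval 9.35 to 11.9) with mIgG1 and 7.30% (204 of 2796, interval 6.36 to 8.32) with Ang2 Ab. For the overexpression pair it was 5.48% (136 of 2481, interval 4.62 to 6.45) in the Ctrl library and 12.6% (306 of 2424, interval 11.3 to 14.0) in the *EC-Ang2* library. Of all barcodes, including endothelial ones, they were 3.45%, 2.48%, 1.91%, and 5.29%. The intervals did not overlap within either pair, but the 2 control libraries differed from each other by more than mIgG1 and Ang2 Ab did. A minimum of 2500 UMIs in place of 1500 turned the order of the 2 lowest shares, with 6.46% in Ctrl and 6.14% in Ang2 Ab. Below the minimum, 12, 10, 2, and 7 barcodes of 500 to 1499 UMIs met the other limits, which is 4.55%, 4.65%, 1.45%, and 2.23% of all barcodes that met them.

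**Figure D1:**
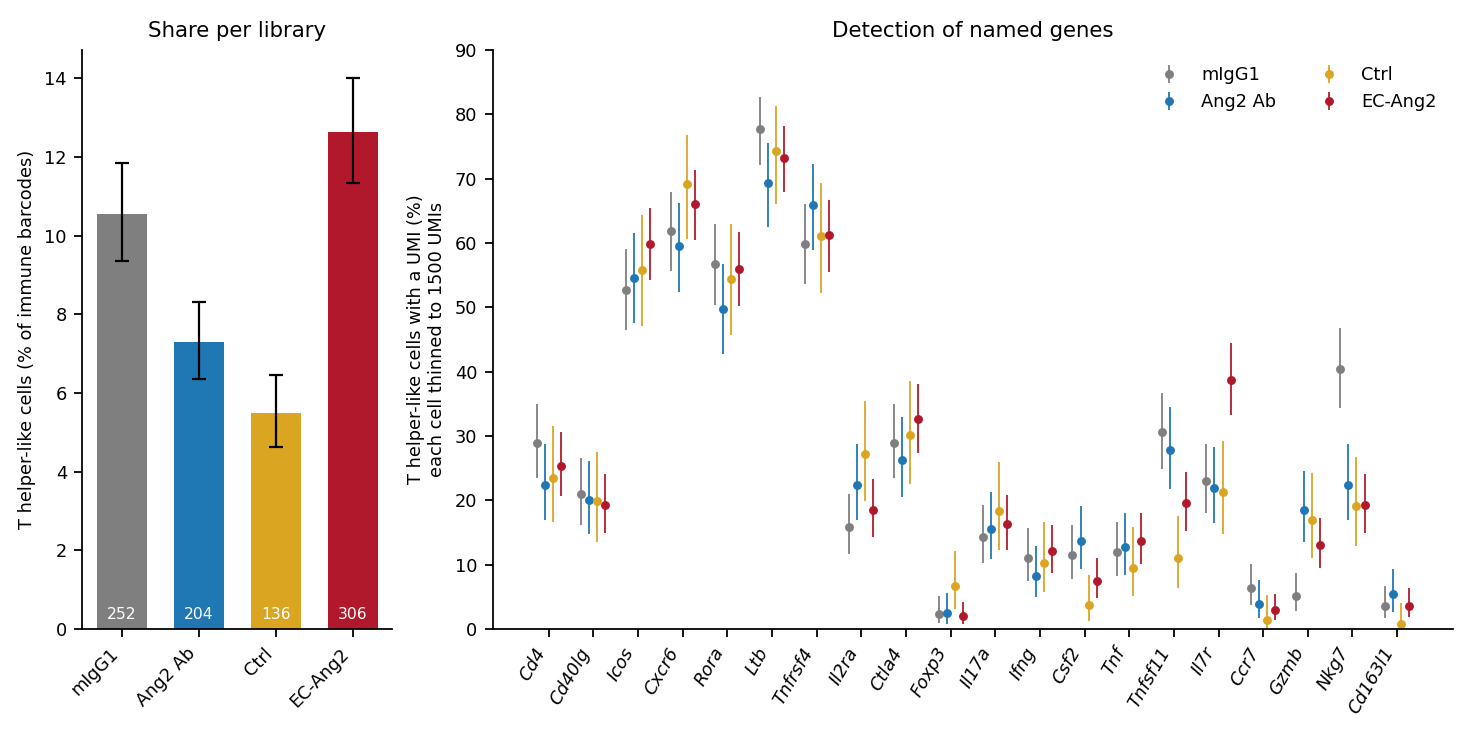
The left panel shows T helper–like cells as a percentage of immune barcodes in each library, with bars for the share, whiskers for the 95% Clopper-Pearson interval, and the number of cells at the foot. The right panel shows the percentage of T helper–like cells with a UMI of each named gene after thinning to 1500 UMIs, with points and 95% intervals by library; *Il7r* was highest in *EC-Ang2* (38.8%), and *Gzmb* was lowest and *Nkg7* highest in mIgG1.

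Cytokine genes set a small part of the T helper–like cells apart. *Il17a* (chr1:20730905-20734496, plus strand), the signature cytokine gene of Th17 cells, had 903, 640, 1277, and 2134 UMIs in 42, 42, 33, and 73 cells. These UMIs gave 924, 805, 1991, and 1363 CPM. In thinned cells it was found in 14.3% (interval 10.2 to 19.2), 15.6% (10.9 to 21.3), 18.4% (12.3 to 25.9), and 16.3% (12.3 to 20.9). All 4 intervals overlapped, so the share of *Il17a*-positive cells did not separate the libraries at this depth. The share in thinned endothelial barcodes was at most 0.294% and in thinned myeloid barcodes at most 0.587%. The 3 cells with the most *Il17a* UMIs held 54%, 51%, 69%, and 43% of them, and a CPM of this gene therefore follows a handful of cells.

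Other cytokine genes of Th17 cells were rarer and more uneven. *Il17f*, which encodes the closely related IL-17F, had a UMI in 5, 4, 11, and 16 cells. Most of these cells also had *Il17a*, namely 4 of 5, 3 of 4, 9 of 11, and 14 of 16. *Il22*, another Th17 cytokine gene, was found in 4, 6, 8, and 16 cells, and 3 cells held 99%, 89%, 97%, and 56% of its UMIs. In CPM, *Il17f* stood at 36.8, 52.8, 460, and 42.8 and *Il22* at 204, 35.2, 859, and 74.7, so both were highest in Ctrl.

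*Ifng* (chr10:118441046-118445892, plus strand), the Th1 cytokine gene, had 207, 216, 189, and 429 UMIs in 52, 31, 21, and 60 cells. In thinned cells it was found in 11.1% (7.51 to 15.7), 8.29% (4.91 to 12.9), 10.3% (5.74 to 16.7), and 12.1% (8.63 to 16.2). These intervals overlapped as well. *Tbx21*, which encodes the Th1 transcription factor T-bet, stood at 33.8, 20.1, 24.9, and 26.2 CPM. *Il17a* and *Ifng* were found together in 7, 8, 5, and 15 cells. Of *Il17a*-positive cells, 16.7%, 19.0%, 15.2%, and 20.5% had *Ifng*, against 21.4%, 14.1%, 15.5%, and 19.2% of *Il17a*-negative cells.

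*Csf2* (chr11:54247271-54249667, minus strand) encodes GM-CSF and was seen in fewer cells of Ctrl than of the other libraries. It had 273, 360, 88, and 595 UMIs in 44, 41, 8, and 32 cells. In thinned cells it was found in 11.5% (7.84 to 16.1), 13.7% (9.27 to 19.1), 3.68% (1.20 to 8.37), and 7.49% (4.81 to 11.0). Ctrl was lowest on both scales, and its interval overlapped that of *EC-Ang2* but not that of Ang2 Ab. Type 2 cytokine genes were scarcely seen. *Il4* had 0 UMIs in all 4 libraries. If UMIs are independent, that allows at most 3.07, 3.77, 4.68, and 1.92 CPM. *Il5* had 0, 1, 0, and 1 UMI.

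**Figure D2:**
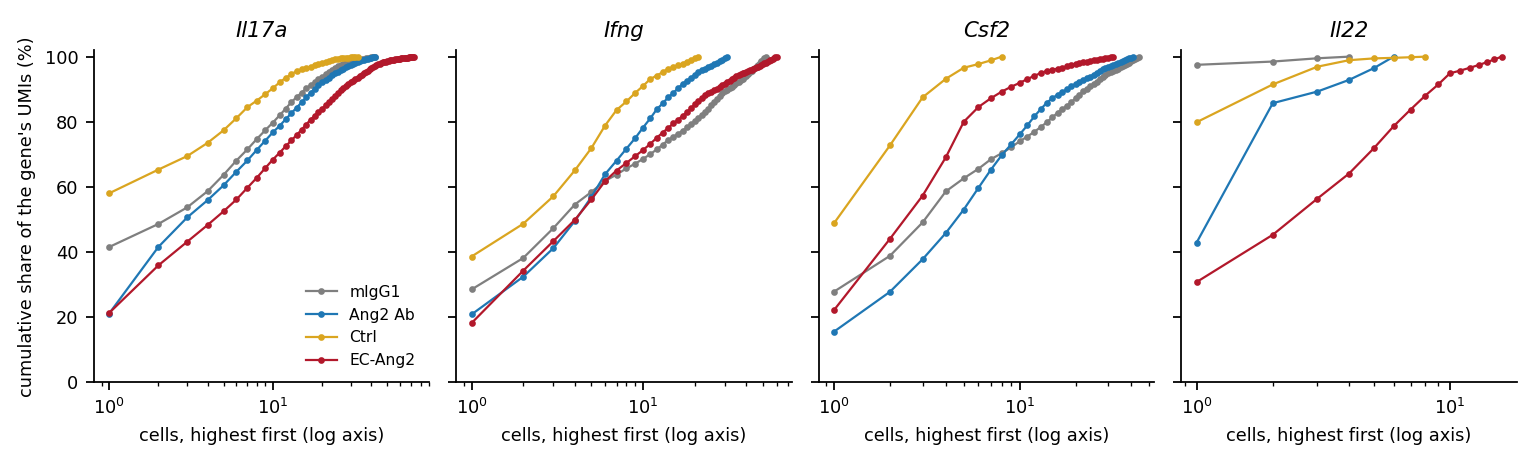
Each panel plots, for 1 cytokine gene, the cumulative percentage of its UMIs against the number of T helper–like cells that hold them, from the highest cell down on a log axis, with 1 line for each library. The first 3 cells already held 43% to 69% of the *Il17a* UMIs, and the Ctrl line ended at 8 cells for *Csf2*.

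*Csf2* was found more often in cells that also had another effector cytokine gene. It was present in 14 of 42, 14 of 42, 5 of 33, and 16 of 73 *Il17a*-positive cells, which is 33.3%, 33.3%, 15.2%, and 21.9%. Among *Il17a*-negative cells the share was 14.3%, 16.6%, 2.91%, and 6.84%. Of *Ifng*-positive cells, 28.8%, 48.4%, 28.6%, and 26.7% had *Csf2*, against 14.5%, 14.9%, 1.74%, and 6.48% of *Ifng*-negative cells. The direction was the same in the 4 libraries for both genes, but deeper cells show more genes of any kind, and depth was not removed from these shares.

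Cells with at least 2 *Il17a* UMIs (33, 34, 26, and 56) were set beside cells with none (210, 163, 103, and 234) as a description chosen after values were seen, with no test. The median cell was deeper in the first class, with 3682 against 3261, 4483 against 3165, 5199 against 3966, and 5037.5 against 3804 UMIs. *Csf2* stood at 573.5 against 226.5, 1237 against 238, 443.5 against 38.1, and 797 against 197 CPM. *Il1r1*, the IL-1 receptor gene used by Th17 cells, stood at 119 against 38.8, 73.8 against 29.3, 76.0 against 29.2, and 55.4 against 21.1 CPM. Both genes were higher in the *Il17a* class of each library. *Cxcr3*, a chemokine receptor gene of Th1 cells, ran the other way at 49.0 against 108, 17.02 against 72.4, 6.34 against 76.3, and 21.1 against 112 CPM.

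The same description of cells with at least 2 *Ifng* UMIs (29, 21, 14, and 36) against none (200, 174, 115, and 247) was made in the same way. *Tnf* stood at 379 against 97.5, 220 against 96.4, 175 against 48.6, and 375 against 119 CPM. *Lta*, which encodes lymphotoxin α, stood at 303 against 100, 195 against 117, 175 against 91.3, and 304 against 84.8 CPM. The transcription factor gene *Ikzf2* (Helios) was lower, at 27.5 against 180, 0 against 183, 0 against 194, and 26.8 against 83.1 CPM. These 3 genes had the same direction in the *Il17a* class of each library, and *Csf2* was higher in the *Ifng* class of each library as well.

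Cells with a UMI of *Foxp3* (chrX:7573644-7595245, plus strand), the gene of the regulatory T cell transcription factor, differed from the others in many genes. There were 15, 10, 13, and 14 of them, 52 in all, against 848 without. UMIs were summed in each library and class, and the classes were compared by the edgeR quasi-likelihood test with library as a block and Benjamini-Hochberg adjustment. The 4 libraries are the replicates, and since they are 4 conditions the test asks for differences common to them. Of 3665 genes tested, 144 rose (3.93% of those tested) and 159 fell (4.34%) in *Foxp3*-positive cells at an adjusted p below 0.05. Leaving out *EC-Ang2* lowered these numbers to 92 and 94. *Foxp3* itself chose the cells and was not counted. Median depth was 3667 against 3289, 3879 against 3322, 5178 against 4054, and 3781.5 against 4091 UMIs.

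Of the 18 genes of the regulatory list, 12 passed the filter on low counts, and 11 of these were called higher. *Ikzf2*, *Ikzf4*, *Izumo1r*, *Klrg1*, *Lrrc32*, and *Nt5e* reached the filter's level in every library of the *Foxp3*-positive class but not of the other. A gene of this kind entered the test through the class in which it is high, so its call adds little to its levels, and the count is not read as a result about the list. The other 6 reached it in both classes, and 5 of them, *Ctla4*, *Il2ra*, *Tnfrsf4*, *Tnfrsf9*, and *Tnfrsf18*, were called higher. Of the 11 calls, 9 held without each library in turn, a number that counts genes of both kinds. *Ikzf2* (chr1:69531214-69687245, minus strand) stood at 1026 against 71.5, 893 against 114, 1097 against 26.6, and 956 against 20.2 CPM. The classes did not overlap, and the log2 fold change was 4.22 ± 0.28 (SE, adjusted p = 1.69e-11, higher in 4 of 4 libraries). *Izumo1r*, the folate receptor 4 gene of regulatory T cells, rose by 4.32 ± 0.29 (adjusted p = 1.98e-11). *Lrrc32*, which encodes GARP and anchors latent TGF-β on the cell surface, rose by 4.56 ± 0.58 (adjusted p = 3.86e-06), again in 4 of 4 libraries.

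Checkpoint and costimulatory receptor genes of the same list rose less steeply. *Ctla4*, which encodes the inhibitory receptor that competes for CD80 and CD86, stood at 1719 against 236, 845 against 284, 826 against 216, and 750 against 365 CPM (1.79 ± 0.21, adjusted p = 7.01e-07). The TNF receptor family genes *Tnfrsf18* (GITR), *Tnfrsf4* (OX40), and *Tnfrsf9* (4-1BB) rose by 1.76, 1.46, and 1.84, each in 4 of 4 libraries. *Il2ra*, the high-affinity IL-2 receptor gene, rose by 0.82 (adjusted p = 0.0179). That call was lost without mIgG1 (adjusted p = 0.069), without Ang2 Ab (0.0793), or without Ctrl (0.25). *Capg* was the 1 tested regulatory gene that did not pass, at 0.14. Outside the list, *Il1rl1*, the IL-33 receptor gene found on tissue regulatory T cells, also reached the filter only in *Foxp3*-positive cells (4.71 ± 0.48), and it stood at 116 against 5.50, 241 against 6.63, 77.5 against 3.55, and 145 against 4.05 CPM. *Il1rl1* and *Gata3*, a transcription factor gene, are the 2 genes tested from the marker list of type 2 innate lymphoid cells, which has 7 genes. *Gata3* rose by 1.23 ± 0.30 (adjusted p = 0.00805) and reached the filter in both classes, but its call was lost without Ctrl (adjusted p = 0.0917) or *EC-Ang2* (0.135). The part of such cells was not tested.

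*Gzmb* (chr14:56258838-56262260, minus strand) encodes the protease granzyme B and was the 1 cytotoxic list gene called higher. It stood at 910 against 66.0, 1979 against 294.5, 1627 against 270, and 1004 against 166 CPM, with no overlap between the classes. The log2 fold change was 2.78 ± 0.17 (adjusted p = 5.90e-12, 4 of 4 libraries). Of 8 cytotoxic genes tested, 5 fell, of which *Fasl*, *Klrk1*, and *Klrc1* reached the filter only in *Foxp3*-negative cells. Among the 5 were *Nkg7* (−1.44, adjusted p = 0.00088) and the inhibitory receptor gene *Klrc1* (−2.48, adjusted p = 0.00127). *Maf* (1.31), a transcription factor gene shared by Th17 and regulatory cells, rose in 4 of 4 libraries, and its call held without each library. The costimulatory receptor gene *Cd27* (2.61) was higher in 4 of 4 libraries but reached the filter only in *Foxp3*-positive cells.

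Some interferon-induced genes also rose in *Foxp3*-positive cells, with 9 of 22 tested members higher and none lower. Of these 22, 16 reached the filter in both classes, and 6 of the 16 were higher. *Ifi27l2a* stood at 2745 against 831, 6901 against 1296, 7565 against 991, and 5494 against 823 CPM (2.38 ± 0.13, adjusted p = 9.00e-13). *Isg15* rose by 0.83 and the guanylate-binding protein gene *Gbp7* by 1.31. The calls of these 3 genes held without each library in turn. That of *Gbp3* (2.30) held too, but this gene reached the filter only in *Foxp3*-positive cells, and the other 5 calls did not hold in every case. Of 12 cell cycle genes, 5 rose and none fell. The call of *Top2a* (1.32) was lost without *EC-Ang2* (adjusted p = 0.166), and none of the 5 was tested and called without each library in turn. Of the 5, *Top2a*, *Rrm2*, and *Tubb5* reached the filter in both classes.

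Several effector cytokine genes fell in *Foxp3*-positive cells. *Csf2* had 0 UMIs in the 52 *Foxp3*-positive cells, which allows up to 5.77% of such cells to hold a UMI but does not limit how many express the gene, and 1316 UMIs in the other cells. With a floor of 3 counts over the class, it was 32.0-fold lower (adjusted p = 5.55e-09). The floor takes UMIs as independent, but the highest cell of each library held 76, 56, 43, and 132 *Csf2* UMIs. A single missed cell could thus bring far more than 3 UMIs, and the fold is not a lower bound. The chemokine gene *Ccl1* had 0 against 2045 UMIs and was 49.8-fold lower by the same floor (adjusted p = 1.72e-10), with the same limit. *Tnfsf11*, which encodes RANKL, stood at 101 against 466, 72.4 against 500, 51.6 against 140, and 48.4 against 264 CPM (−2.34 ± 0.28, adjusted p = 1.52e-06). Of 10 genes tested from the list of cytokines and their regulators, 4 fell, 6 did not pass, and none rose. Of the 4, *Tnfsf11*, *Lta*, and the transcription factor gene *Bhlhe40* reached the filter in both classes, while *Csf2*, like *Ccl1*, reached it only in *Foxp3*-negative cells. Of 9 Th17 genes tested, 4 fell and 1, *Maf*, rose. Of the 4 that fell, *Rora* and *Tmem176b* reached the filter in both classes, and *Il17a* and *Il22* only in *Foxp3*-negative cells.

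Both signature cytokine genes fell, but unevenly across the libraries. *Il17a* fell by 1.91 ± 0.43 on the log2 scale (adjusted p = 0.004), at 896 against 926, 700 against 811, 116 against 2249, and 0 against 1439 CPM. The 2 libraries of the blockade pair hardly differed between classes, and the call was lost without Ctrl (adjusted p = 0.0795) or *EC-Ang2* (0.0877). *Ifng* fell by 1.81 ± 0.44 (adjusted p = 0.00821) and was higher in the mIgG1 class, at 274.5 against 207 CPM. Without Ang2 Ab, Ctrl, or *EC-Ang2* its call was lost (adjusted p = 0.0668, 0.0779, and 0.146). *Cxcr6*, a chemokine receptor gene of effector cells in tissue, fell by 1.29 ± 0.15 in 4 of 4 libraries, and *Lag3*, a checkpoint receptor gene, fell by 2.23 ± 0.41. Of these genes, *Cxcr6* reached the filter in both classes, and *Il17a*, *Ifng*, and *Lag3* reached it only in *Foxp3*-negative cells.

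**Figure D3:**
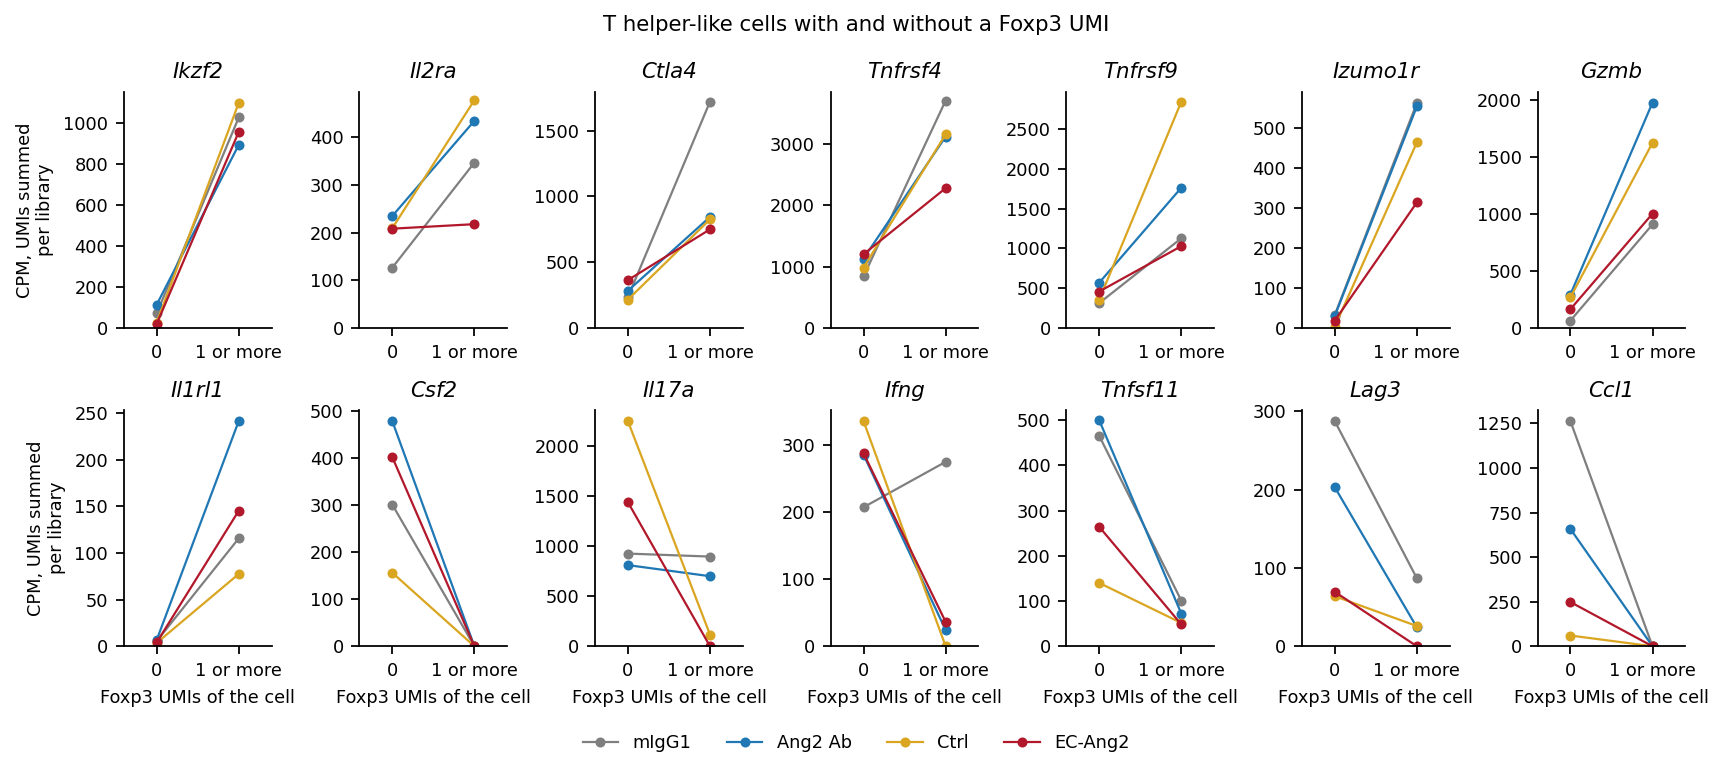
Each panel plots 1 gene in T helper–like cells without (0) and with (1 or more) a *Foxp3* UMI, as CPM over the summed UMIs of each class, with 1 line for each library. Lines of *Ikzf2*, *Ctla4*, *Izumo1r*, *Gzmb*, and *Il1rl1* rose in the 4 libraries, those of *Csf2* and *Ccl1* ended at 0, and the mIgG1 line of *Ifng* ran against the other 3.

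The share of *Foxp3*-positive cells was highest in Ctrl. In thinned cells it was 2.38% (0.88 to 5.11), 2.44% (0.80 to 5.60), 6.62% (3.07 to 12.2), and 1.95% (0.72 to 4.21). All intervals overlapped, and the share was at most 0.035% in thinned endothelial and 0.0458% in thinned myeloid barcodes. *Ikzf2* over all T helper–like cells stood at 139, 155, 156, and 69.6 CPM, so *EC-Ang2* was below the other 3. *Il2ra* stood at 142, 245, 242, and 209 CPM and was lowest in mIgG1.

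In the blockade pair, 5 of 20 interferon-induced genes and 3 of 15 glycolysis genes were higher past 1.5-fold in Ang2 Ab, and none of either list was lower. A gene was counted when it had at least 50 UMIs over both libraries and a UMI in at least 10% of the cells of 1 of them, and a difference past 1.5-fold was taken as a rule of size. Of 3769 genes counted, 212 (5.62%) were higher past 1.5-fold in Ang2 Ab and 174 (4.62%) lower, and the counting interval excluded 0 for 139 and 112 of them. With TMM factors the numbers were 181 and 197, and with the mean CPM of single cells 265 and 162, so which direction was more frequent depended on the scaling. The median log2 ratio over all measured genes was 0.03. None of the 22 T cell receptor and proximal signaling genes counted was past 1.5-fold either way.

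Interferon-induced genes had a median log2 ratio of 0.41, with 5 of 20 counted members higher past 1.5-fold, none lower, and 21 of 26 measured members above 0. *Isg15* (chr4:156199424-156200818, minus strand), which encodes a ubiquitin-like modifier, stood at 361 CPM in mIgG1 and 593.5 in Ang2 Ab, a log2 ratio of 0.72 (0.52 to 0.92). *Ifi27l2a* stood at 967 and 1588 CPM (0.72, interval 0.59 to 0.84). *Zbp1*, a sensor of nucleic acids, stood at 120 and 195 CPM (0.70, interval 0.35 to 1.06).

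Glycolysis genes had a median log2 ratio of 0.44, and 14 of 15 were above 0. *Eno1*, the enolase gene, stood at 856 and 1420 CPM (0.73, interval 0.60 to 0.86). *Pkm* and *Ldha*, which encode the last enzymes on the way to lactate, stood at 1129 and 1688 CPM (0.58) and at 1219 and 1649 CPM (0.43). Besides *Eno1*, *Slc2a3* and *Pgk1* were past 1.5-fold. Over 10 alternative settings the glycolysis median ran from 0.39 to 0.50 and the interferon median from 0.37 to 0.54.

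Single effector and regulatory genes stood apart from their lists. *Gzmb* stood at 126 CPM in mIgG1, in 20 cells, and at 382 CPM in Ang2 Ab, in 52 cells (1.60, interval 1.30 to 1.92). *Nkg7*, which encodes a cytotoxic granule protein, was opposite at 694.5 CPM in 127 cells and 361 CPM in 64 cells (−0.94, interval −1.15 to −0.74). *Il2ra* (0.79, interval 0.47 to 1.11) and *Tnfrsf9* (371 and 631 CPM, 0.77) were the 2 regulatory list members past 1.5-fold. *Csf2* (279 and 453 CPM, 0.70, interval 0.47 to 0.93) was higher, but its UMIs sat in 44 and 41 cells. Of the 10 genes counted from the list of cytokines and their regulators, *Spp1* was the other one past 1.5-fold, and free RNA could account for 110% of it in mIgG1 and 47.7% in Ang2 Ab, where a value above 100% means that more was expected from free RNA than was found.

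Trafficking genes had a median log2 ratio of −0.02, and single members went both ways. Of 21 counted, *Ccr2*, the receptor gene for CCL2, was higher past 1.5-fold (146 and 221 CPM, 0.60), and *Cxcr3* (98.2 and 56.6 CPM, −0.80, interval −1.34 to −0.27) and *Rgs16* were lower. Over all genes counted, 5.62% were higher and 4.62% lower, so these counts are not read as a result about the list. The α4 integrin gene *Itga4*, whose product T cells use to enter the SC, stood at 72.6 and 55.3 CPM, and its β1 partner gene *Itgb1* at 326 and 290.5 CPM, neither past 1.5-fold. Th1 genes had a median of −0.32 and Th17 genes of −0.28, with 1 of 8 and 1 of 7 counted members lower past 1.5-fold and none higher. With 4.62% of all genes counted lower, 1 such member of a list is not read as a result about that list. Among the Th17 genes not counted, *Il22* stood at 204 and 35.2 CPM, with 1 cell holding 97.5% of its UMIs in mIgG1. Cell cycle genes had a median of −0.44, which ran from −0.56 to −0.13 over 10 alternatives and was weakest with the mean CPM of single cells, with *Mcm5* higher and *Hmgb2* lower.

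Among the 12 genes with the largest ratio each way for which free RNA could account for under 25%, *Ifitm1*, an interferon-induced transmembrane protein gene, stood at 145 and 456 CPM (1.65, interval 1.37 to 1.94). It was found in 57 and 63 cells. Others that were higher were *Rrp1b* (1.68) and *Gnl3* (1.35), both genes of nucleolar proteins, *Hbegf* (1.57), which encodes a ligand of the EGF receptor, and the chemokine receptor gene *Ccr1* (1.45). *Erdr1* (1.67) belongs to a region of repeated copies and is uncertain. *Tff1*, the trefoil factor 1 gene, stood at 151 and 39.0 CPM (−1.96, interval −2.57 to −1.39), with a UMI in 32 and 10 cells. *Evl*, an actin regulator gene, was also lower (92.1 and 40.2 CPM, −1.19). The macrophage genes *Apoe* (1226 and 306 CPM, −2.00) and *Lyz2* (637 and 314 CPM, −1.02) were lower as well, and free RNA could account for 95.8% and 138% of the *Apoe* UMIs. Free RNA could account for 25% or more of the mIgG1 UMIs of 19 of the 174 lower genes. With the expected free RNA taken off, the interferon median was 0.51 and the glycolysis median 0.44.

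In the overexpression pair, 5 of 10 counted genes of the list of cytokines and their regulators were higher past 1.5-fold in *EC-Ang2* and 6 of 22 interferon-induced genes lower. Of 4320 genes counted, 243 (5.62%) were higher and 232 (5.37%) lower past 1.5-fold, with an interval that excluded 0 for 132 and 163. The median log2 ratio over all measured genes was −0.01. As in the blockade pair, none of 22 T cell receptor and signaling genes was past 1.5-fold.

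Of these 10 genes, 5 were higher past 1.5-fold and none lower, and all 12 measured members were above 0, with a list median of 0.79. *Csf2* stood at 137 CPM in Ctrl and 380 in *EC-Ang2* (1.47, interval 1.14 to 1.81), in 8 and 32 cells, of which 3 held 87.5% of its UMIs in Ctrl and 5 held 80% in *EC-Ang2*. *Tnf* stood at 70.2 and 172 CPM (1.29, interval 0.83 to 1.78), in 25 and 91 cells. *Tnfsf11* stood at 129 and 253 CPM (0.97, interval 0.62 to 1.33), in 25 and 105 cells, and in thinned cells at 11.0% and 19.5%. *Areg*, which encodes the growth factor amphiregulin, was at 139 and 213 CPM (0.62), and the fifth gene was *Spp1*, for which free RNA could account for 180% and 77.1%. Over 10 alternatives the list median ran from 0.61 to 1.61. The mIgG1 and Ang2 Ab libraries held more of *Csf2* and *Tnfsf11* than Ctrl did, with *Tnfsf11* at 440 and 478 CPM. *Il17a* was not among these genes, at 1991 and 1363 CPM (−0.55, interval −0.65 to −0.45), with 1 cell holding 58.0% of its UMIs in Ctrl. *Il17f* stood at 460 and 42.8 CPM (−3.43, interval −3.83 to −3.04) and *Il22* at 859 and 74.7 CPM (−3.52, interval −3.82 to −3.23). Both genes were found in under 10% of the cells and were therefore not counted, and 1 cell held 79.9% of the *Il22* UMIs in Ctrl.

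Interferon-induced genes had a median of −0.29, with 6 of 22 counted members lower past 1.5-fold, none higher, and 5 of 27 measured members above 0. *Ifit3* stood at 62.4 and 13.4 CPM (−2.22, interval −3.05 to −1.42), *Isg15* at 897 and 584 CPM (−0.62, interval −0.77 to −0.47), and *Ifi27l2a* at 1785 and 1070 CPM (−0.74, interval −0.85 to −0.63). Over the 4 libraries, *Isg15*, *Ifi27l2a*, and *Zbp1* were lowest in mIgG1 and highest in Ctrl, with Ang2 Ab and *EC-Ang2* between them. Each pair was read against its own control, and neither control was replicated. *Ly6a* (2440 and 2503 CPM) was close to even, and it has near-identical relatives whose reads may be shared.

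**Figure D4:**
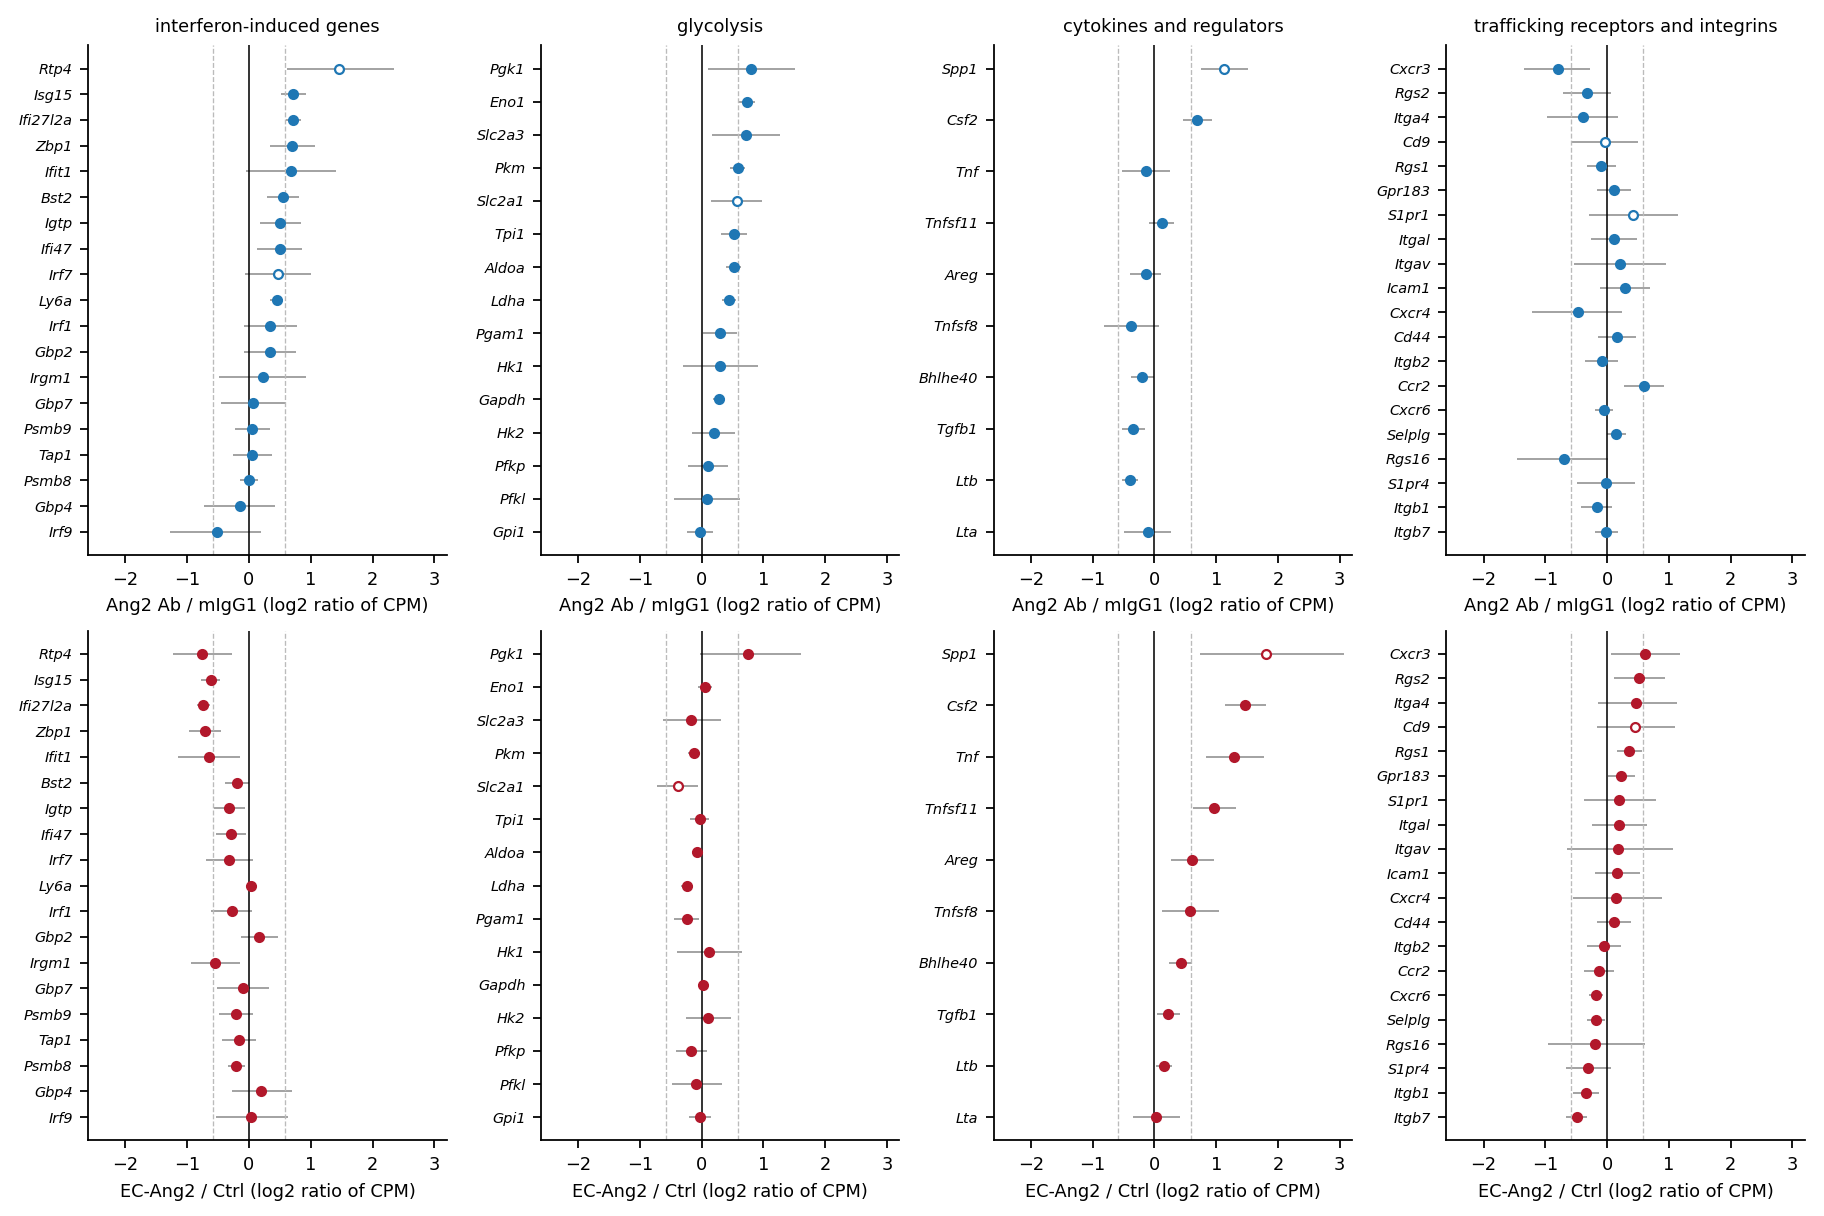
Log2 ratios of CPM are shown for 4 gene lists, with Ang2 Ab over mIgG1 in the upper row and *EC-Ang2* over Ctrl in the lower row; bars are 95% intervals from counting error, dashed lines mark 1.5-fold, and open symbols mark genes for which free RNA could account for 25% or more. The upper interferon and glycolysis points lay mostly right of 0, the lower interferon points mostly left of it, and *Csf2*, *Tnf*, *Tnfsf11*, and *Areg* right of the 1.5-fold line in the lower row.

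Resting and regulatory genes differed singly. *Il7r*, the IL-7 receptor gene that marks cells kept alive by IL-7, stood at 187 and 303 CPM (0.69, interval 0.40 to 1.00), in 65 and 204 cells. In thinned cells it was found in 23.0%, 22.0%, 21.3%, and 38.8%, so *EC-Ang2* stood above the other 3 libraries with no overlap of intervals. In thinned myeloid barcodes the share was at most 8.24%. *Tcf7*, the gene of the transcription factor TCF-1, was higher (0.71), and *Klf2*, which controls recirculation, was lower (254 and 140.5 CPM, −0.85). *Ikzf2* was lower in *EC-Ang2* (156 and 69.6 CPM, −1.16, interval −1.57 to −0.76), in 17 and 24 cells, and *Gzmb* was lower too (434 and 210 CPM, −1.04, interval −1.28 to −0.81). Both genes were called higher in *Foxp3*-positive cells above, which made up 6.62% and 1.95% of thinned cells in Ctrl and *EC-Ang2*, and the part of those cells in these ratios was not tested.

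The list of activation, costimulation, and checkpoint genes had a median of 0.0056. The single genes that follow differed both ways and are not read as a group. The NF-κB regulator gene *Nfkbid* stood at 88.9 and 186.5 CPM (1.07) and the cytokine feedback gene *Cish* at 122 and 215 CPM (0.82). The orphan nuclear receptor gene *Nr4a2*, induced by receptor signaling, was lower (67.0 and 35.8 CPM, −0.91). Cell cycle genes had a median of 0.75, with *Top2a* (42.1 and 85.0 CPM, 1.01) and *Cenpa* higher past 1.5-fold among 7 counted. Without the cells that had UMIs of at least 3 cell cycle genes, the cell cycle median was 0.0037. Those cells were chosen by UMIs of the same list, so this change is not read as a result. Glycolysis genes were even, with a median of −0.07 and 1 of 15 higher past 1.5-fold. For trafficking genes the median was 0.15, with *Cxcr3* higher (54.6 and 83.0 CPM, 0.61), and *Itga4* (43.7 and 60.7 CPM) and *Itgb1* (437 and 344 CPM) stayed within 1.5-fold. Th1 genes had 2 members higher and 3 lower past 1.5-fold of 11, and none of the 7 Th17 genes counted was past it. Over all genes counted in this pair, 5.62% were higher and 5.37% lower past 1.5-fold. The Th17 list has 14 genes, and the 7 not counted include *Il17f* and *Il22*, which were far past it as given above. The summed level of the list was 4712 CPM in Ctrl and 2966 CPM in *EC-Ang2*, but of its 3022 UMIs in Ctrl, 741 were *Il17a* UMIs of a single cell and 440 were *Il22* UMIs of a single cell, so the difference of the sums follows very few cells.

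Among the genes with the largest ratios, *Mir155hg*, the host transcript of the activation-induced microRNA miR-155, stood at 21.8 and 72.8 CPM (1.74, interval 0.93 to 2.65), in 9 and 74 cells. *Ecm1*, which encodes a secreted matrix protein made by helper cells, stood at 84.2 and 244 CPM (1.54, interval 1.12 to 1.97). *Gsk3a*, a kinase gene, had the largest ratio (1.99, from 6 and 58 UMIs) of the genes for which free RNA could account for under 25%. Lower genes included *Mnda* (−1.56), the RNA sensor gene *Ddx58* (−1.29), and the chemokine gene *Cxcl10* (81.1 and 35.1 CPM, −1.21). Free RNA could account for 24.2% and 45.5% of *Cxcl10*. Microglial and macrophage genes were lower as well. The microglia sum was 296 CPM in Ctrl and 95.2 in *EC-Ang2*, *C1qb* stood at 182 and 46.6 CPM (−1.97), and *Chil3*, a monocyte gene, ran the other way at 3.12 and 81.8 CPM. Free RNA could account for 61.5% and 108% of the *C1qb* UMIs and for 769% and 107% of the *Chil3* UMIs. With the expected free RNA taken off, the cytokine median was 0.79 and the interferon median −0.30.

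The 2 control libraries differed more than either pair did. Of 3598 genes counted, 432 (12.0%) were higher and 292 (8.12%) lower past 1.5-fold in Ctrl against mIgG1. Ctrl was higher in *Isg15* (1.31, interval 1.12 to 1.51), *Gzmb* (1.78, interval 1.47 to 2.10), and *Ccr2* (1.15, interval 0.83 to 1.47). It was lower in *Lag3* (273 and 59.3 CPM, −2.20), *Tnfsf11* (−1.76), *Nkg7* (−1.54), and *Csf2* (−1.03). Strain, transgene, age, day, toxin dose, and antibody injection differed along with the library, and these cannot be told apart.

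Against the 123 cells that resembled NK or CD8 T cells (25, 37, 28, and 33), T helper–like cells had less of most cytotoxic genes tested. These cells met the same depth, myeloid, and endothelial limits but held a UMI of *Cd8a* or *Cd8b1* beside the CD3 genes or at least 2 UMIs of *Ncr1*, *Klre1*, and *Klrb1c*. Among them were the 20, 26, 24, and 28 barcodes that only a *Cd8a* or *Cd8b1* UMI kept out. Of those, 20%, 38.5%, 25%, and 39.3% had a *Cd4* UMI, against 55.6%, 44.4%, 55.9%, and 60.3% of T helper–like cells. The group may thus hold some helper cells, and their part in the contrast was not tested. Of 4385 genes tested with edgeR, genes of either rule left out, 39 were higher in T helper–like cells (0.889%) and 41 lower (0.935%). Leaving out Ang2 Ab gave 17 and 26, Ctrl 24 and 22, and *EC-Ang2* 18 and 24.

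Of 11 cytotoxic genes, 8 were lower and none higher, and 6 of these calls held without each library. Of the 8, all but *Gzma* reached the filter on low counts in both classes. *Ccl5*, the chemokine gene of cytotoxic and memory cells, stood at 616 against 7442, 578 against 2627, 310 against 5182, and 183 against 1986 CPM (−3.36 ± 0.19, adjusted p = 4.52e-11). *Gzma* fell by 3.88 ± 0.48, *Xcl1* by 3.85 ± 0.45, and *Nkg7* by 2.18 ± 0.15 on the log2 scale, each lower in 4 of 4 libraries. The naive genes *Tcf7* (−1.58) and *Txk* (−1.13) were lower too, and the *Tcf7* call held without each library. *Xcl1*, *Tcf7*, and *Klra7*, like *Gzma*, reached the filter only in the NK and CD8 T cell–like cells. *Klra7* and *Ly6c2* were also lower, and both belong to families of near-identical genes.

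On the other side, *Lta* stood at 138 against 8.74, 128 against 23.7, 131 against 17.6, and 133 against 68.8 CPM (1.86 ± 0.30, adjusted p = 0.000849). Of 11 genes tested from the list of cytokines and their regulators, 5 were called, and 2 of these calls held without each library. Of the 5, *Xcl1* was lower, as given above. *Areg* (1.15, higher in 3 of 4 libraries) and *Tnfsf11* (0.94, higher in 4 of 4) reached the filter in both classes. *Lta* and *Tnf* were higher but reached the filter only in T helper–like cells, so their calls add little to their levels. Calls that held without each library, of genes that reached it in both classes, included those of *Cd5* (1.11), which encodes a brake on receptor signaling, *Cd6* (0.94), its relative, *Tnfrsf4* (0.76), and *Capg* (0.67). *Cd4* was higher by 0.79 (adjusted p = 0.0193) and *Cd40lg* by 1.06 (adjusted p = 0.00968) in 4 of 4 libraries, but without *EC-Ang2* the adjusted p was 0.188 and 0.135. *Il17f* (3.08, adjusted p = 7.95e-05), which also reached the filter only in T helper–like cells, was no longer called without Ctrl (adjusted p = 0.141). *Il17a* (1.25 ± 0.32, adjusted p = 0.0449) was higher in 3 of 4 libraries, with 1363 against 1771 CPM in *EC-Ang2*, and was not called without mIgG1, Ang2 Ab, or Ctrl. Of 15 glycolysis genes, *Eno1* (0.57), *Pkm* (0.54), and *Ldha* (0.39) were higher and none lower, and none of these calls held without each library.

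**Figure D5:**
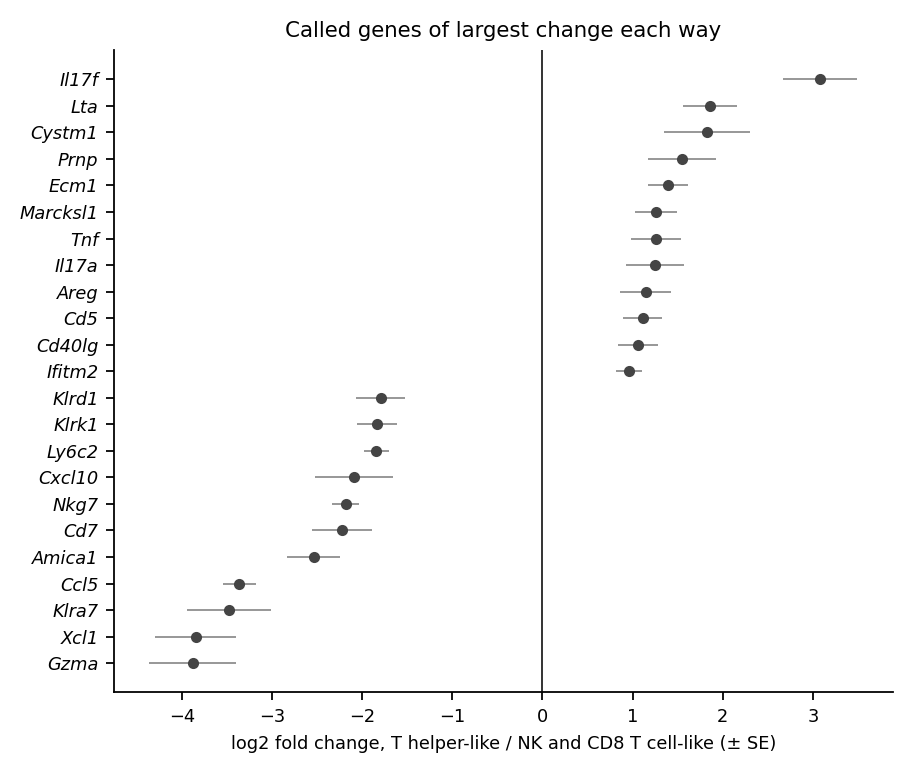
Points are log2 fold changes, with SE bars, of T helper–like cells over NK and CD8 T cell–like cells for genes among the 12 calls of largest change each way in the edgeR test over 4 libraries. The cytotoxic genes *Gzma*, *Ccl5*, *Nkg7*, *Klrk1*, and *Klrd1* lay left of 0, and *Lta*, *Cd5*, *Cd40lg*, and the IL-17 genes lay right of it.

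UMIs of cell cycle genes were found in part of the T helper–like cells. UMIs of at least 3 genes of the cell cycle list were found in 104, 86, 67, and 144 cells, which is 41.3%, 42.0%, 49.3%, and 46.9%. Many were near the limit, since 50, 37, 35, and 66 cells had exactly 3 such genes and 71, 48, 41, and 91 had 2. The class was deeper, with medians of 4398.5 against 2915, 4169 against 2984, 4404 against 3795, and 4891 against 3678 UMIs. How far depth or free RNA added to the class was not tested. A UMI of the proliferation genes *Mki67* or *Top2a* was found in fewer cells, 33, 35, 19, and 50, or 13.1%, 17.1%, 14.0%, and 16.3%.

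With the list itself left out, 71 of 4371 genes rose in that class (1.62%) and 41 fell (0.938%) by the edgeR test. Leaving out mIgG1 gave 38 and 19, Ang2 Ab 43 and 23, without Ctrl 26 fell, and without *EC-Ang2* 34 rose. Genes that rose included the cyclin-dependent kinase cofactor gene *Cks1b* (2.73 ± 0.25, adjusted p = 1.02e-07), the histone chaperone gene *Asf1b* (2.93 ± 0.36, adjusted p = 8.93e-06), and the tubulin gene *Tuba1b* (1.70 ± 0.14, adjusted p = 1.83e-08), each in 4 of 4 libraries. The transcription factor gene *Batf3* rose by 1.75 ± 0.31 (adjusted p = 0.00137). Of these genes, *Tuba1b* reached the filter on low counts in both classes, *Cks1b* and *Asf1b* only in the cell cycle–positive class, and *Batf3* in every library of neither. *Ikzf2* rose by 1.11 ± 0.20 (adjusted p = 0.00137, 4 of 4 libraries), at 176 against 97.6, 179 against 129, 245 against 42.6, and 94.7 against 33.0 CPM, and its call held without each library. *Btg2*, an antiproliferative gene, fell by 0.54 ± 0.08 (adjusted p = 0.000286), and *Cxcr6* fell by 0.38 ± 0.07 (adjusted p = 0.00267). Both were lower in 4 of 4 libraries.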

How the data were processed

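The authors sorted viable CD45+ and CD31+ cells of dissociated SCs in equal numbers and made 3′ single-cell libraries. Per the submitters' processing notes, reads were processed with Cell Ranger 2.1.1 against mm10 and analyzed with Seurat 2.3.4. The deposited files are unfiltered matrices of UMI counts for 27998 genes, 1 for each library, with no cell annotation, so the authors' removal of doublets and cycling cells is not in them. The T helper–like cells and the gene lists were chosen with earlier results of these data known.

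From the counts, UMIs of the T helper–like cells were summed per library and given as CPM. Ratios between conditions carry exact conditional binomial 95% intervals, and shares carry Clopper-Pearson intervals; both cover counting error only. A list was described by its counts and by the median over members with at least 10 UMIs. The 3 contrasts within libraries were fitted with edgeR 4.0.16 (TMM, filterByExpr, library block, adjusted p below 0.05 after Benjamini-Hochberg), with DESeq2 1.42.0 as an alternative. The ratio intervals and the edgeR fit were tried on simulated counts without UMIs clustered in single cells. Such counts do not show how either holds for genes whose UMIs sit in few cells, such as *Il22*. Nothing in the labels says that libraries are independent repeats, and p-values measure only the spread over these 4. Free RNA was scaled from the profile of barcodes with 10 to 100 UMIs by 12 endothelial genes, of which *Igfbp7* had the most UMIs.

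Named genes were the 12 with the largest ratio each way in a pair for which free RNA could account for under 25% in the higher library, the 12 largest calls each way in a contrast, and members of the lists. A few of these genes are not reported here by name or in the figures, but they stayed in all counts and medians. Genes just past that limit, the γδ T cell class, and the *Il17a* and *Ifng* classes were described after their values were seen. Coordinates are from GENCODE M21. Other settings were a minimum of 2500 UMIs, at least 5 CD3 and *Lat* UMIs, *Tyrobp* at 0, Scrublet removal, removal of shared barcodes, of cell cycle–positive or of γδ cells (the last chosen after seeing the data), TMM factors, mean CPM per cell, free RNA taken off, other gene limits, and each library left out.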

Additional observations from a re-analysis of the deposited data

Results flagged for a closer look

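Barcodes of 500 to 1499 UMIs lay outside the analysis. Of 915, 1826, 1580, and 782 such barcodes in the libraries mIgG1, Ang2 Ab, Ctrl, and *EC-Ang2*, a total of 12, 10, 2, and 7 met the other limits for T helper–like cells.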

How the results depend on the processing

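The share of immune barcodes moved to 8.85% (mIgG1), 6.14% (Ang2 Ab), and 6.46% (Ctrl) with at least 2500 UMIs, to 6.53%, 4.69%, 3.91%, and 9.61% (*EC-Ang2*) with no *Tyrobp* UMI, and to 6.86% (Ctrl) and 14.4% (*EC-Ang2*) with immune barcodes defined by Ptprc. Without thinning, *Foxp3* was found in 5.95% (mIgG1) and 4.56% (*EC-Ang2*) of cells, *Il17a* in 23.8% (*EC-Ang2*), *Ifng* in 20.6% (mIgG1), 15.1% (Ang2 Ab), and 19.5% (*EC-Ang2*), and *Csf2* in 17.5% (mIgG1) and 20% (Ang2 Ab). With no *Tyrobp* UMI, *Foxp3* was found in 0.758% (Ang2 Ab). Genes past 1.5-fold numbered 632 higher and 549 lower in the blockade pair and 751 and 607 in the overexpression pair with at least 20 UMIs and no share, and 34 and 25 and 60 and 40 past 2-fold. Without cells that had UMIs of at least 3 cell cycle genes, 108 were lower in the blockade pair and 159 higher and 149 lower in the overexpression pair, and the cytotoxic median there turned from −0.33 to 0.048. The cause was not tested. The 2 medians below 0 of the interferon and above 0 of the cytokine lists in the overexpression pair kept their sign in 10 alternatives each. DESeq2 called 19 higher and 24 lower genes against NK and CD8 T cell–like cells, 99 and 95 for *Foxp3*, and 15 and 13 for the cell cycle class. With no filter on low counts, the NK contrast had 133 higher, the *Foxp3* contrast 80 higher and 380 lower, and the cell cycle contrast 138 higher. With 1 library left out, the NK contrast had 17 to 33 higher and 22 to 56 lower genes, the *Foxp3* contrast 92 to 145 and 94 to 165, and the cell cycle contrast 34 to 76 and 19 to 30. Over all alternatives of single called genes, 1005 of 1288 kept the call, 283 lost it, and 0 turned direction. No paired analysis was possible because each condition had 1 library, and library was already the block in each contrast. Depth limits rare genes: with 0 UMIs a library allows up to 1.92 to 4.68 CPM if UMIs are independent.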
